A study of Mus musculus with 15 samples.

Results

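The genes followed here encode 10 nuclear proteins tied to the naïve, stem-like or memory state of T cells: Tcf7, Lef1, Bach2, Id3, Foxp1, Satb1, Bcl6, Zeb1, Myb and Ets1. They were taken by gene symbol. Each of the 10 is listed in both deposited expression tables, which together name 11836 genes and share 10637 of them. Both tables hold genes left after the authors' filter on low counts, and all 10 factors passed it in each.

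As background, TCF-1 (encoded by Tcf7) and LEF-1 are related HMG-box proteins that bind DNA at the end of the Wnt pathway, and TCF-1 marks naïve CD8 T cells and the self-renewing cells of memory. BACH2 and BCL-6 are repressors of effector and terminal differentiation, and ID3 has no DNA-binding domain of its own but captures E proteins. FOXP1 and ETS1 are linked to T cell quiescence, SATB1 to chromatin folding, ZEB1 to repression at E boxes and MYB to the self-renewal of blood and memory cells. Antigen receptor and IL-2 signals reach these genes along several routes, among them PI3K, AKT and the FOXO factors that AKT keeps out of the nucleus, and JAK kinases with STAT5.

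Messenger RNA was sequenced from CD8 T cells of LCMV-P14 TCR transgenic mice, whose T cells recognise the gp33-41 peptide of the virus glycoprotein, in 15 libraries forming 5 groups of 3 biological replicates. Naïve cells came from lymph nodes and were sorted ex vivo as live cells positive for TCRβ and CD8 with a naïve surface phenotype, and activated cells were sorted as live and CD8-positive. No sort is described for these CTL. For TCR activation the medium held IL-12 at 2 ng/ml, IL-2 at 20 ng/ml and gp33-41 at 100 ng/ml throughout the 24 h, and a further group received in addition 10 µM IC87114, an inhibitor of PI3K p110δ called PI3Kdi from here on, in place of the DMSO vehicle. Each replicate of these groups began as a pool of cells of 3 mice, females of 9 to 13 weeks, that was divided between the conditions. Cytotoxic T lymphocytes (CTL) from P14 mice were activated for 48 h, grown for 4 more days in 20 ng/ml IL-2, washed on day 6 and then given 20 ng/ml IL-2 again or left without IL-2 for 24 h. Age is not given for the CTL, nor whether their replicates came from separate mice, so p-values for them measure the spread between these cultures. The series' design text says that the 6 CTL libraries shared a sequencing lane with the others and are not part of the manuscript. Levels are FPKM, fragments scaled to exon length in kilobases and to library size, and the tables of naïve and activated cells (9 libraries, 11262 genes) and of CTL (6 libraries, 11211 genes) were normalised separately, so tests stay within a table. Read totals per library are not given in the sources used here, and the methods state only a typical yield for a lane of the instrument, so the depth behind each value is unknown.

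The cells carried the RNA of CD8 T cells in every library. All 9 genes of a CD8 T cell list were measured, and their summed FPKM was 4449, 4782 and 4681 in naïve cells, 1279, 1168 and 1080 after TCR activation, 1558, 1608 and 1360 with PI3Kdi, 1698, 1759 and 1680 in CTL with IL-2 and 2887, 2734 and 2998 in CTL without it. Cd8b1 was the most abundant of them in naïve and activated cells, Lck in CTL with IL-2 and Cd3g in CTL without it. The label of the activated state also held: 6 activation and effector genes, led by Gzmb or Il2ra in the activated groups, summed to a mean of 60.7 FPKM in naïve cells, 6055 after TCR activation, 1092 with PI3Kdi, 11002 in CTL with IL-2 and 687 in CTL without it. Not every member rose: Cd69 was at means of 51.8 FPKM in naïve cells, 46.6 after activation alone and 55.55 with PI3Kdi, and was not called. Cd44 stayed within 2-fold of naïve cells with PI3Kdi (10.5 against 7.56).

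Genes listed for other cell types ranged from not measured to abundant. Of 8 B cell genes, 5 are in the table of naïve and activated cells (Pax5, Ebf1 and Blnk are not), with summed FPKM of 20.98, 27 and 22.65 in naïve cells, 5.77, 4.92 and 7.82 after activation alone and 3.33, 4.63 and 4.31 with PI3Kdi, and Cd79b, a B cell receptor component, was the most abundant. Only Cd79b of that list is in the CTL table, at 6.3, 3.96 and 2.74 FPKM with IL-2 and 20.64, 15.7 and 10.8 without. Of 12 myeloid and dendritic cell genes 6 were measured in the same cells as the B cell genes, with Lyz2, Csf1r, Cd14, Itgax, Fcer1g and Flt3 absent from the table and the cystatin gene Cst3 the most abundant, and they summed to 55.4, 91.7 and 69.5 FPKM in naïve cells, 84.7, 52.8 and 68.5 after activation alone and 51.8, 47.7 and 43.7 with PI3Kdi. In CTL 7 of the 12 summed to 126, 149 and 139.8 FPKM with IL-2 and 137, 147 and 127 without. Cd4 is not in the table of naïve and activated cells and averaged 0.23 FPKM in CTL with IL-2 and 1.4 without. The other genes of a 5-gene CD4 T cell list, with Ctla4 the most abundant outside naïve cells, summed to means of 10.6 FPKM in naïve cells, 146 after activation alone and 129 with PI3Kdi, and with Cd4 and without Foxp3, which the CTL table lacks, to 48 and 170 in CTL with and without IL-2. None of 5 NK cell genes is in the table of naïve and activated cells and 2 are in the CTL table, at a summed mean of 3.02 and 4.77 FPKM, and none of 6 erythroid genes is in either. The naïve cells were gated on TCRβ and CD8, the activated cells on CD8 without TCRβ, and for the CTL no gate is described. The part of these genes in any difference of the 10 factors was not tested.

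The 10 factors spanned a wide range of levels, and their order changed with the state of the cells. In naïve cells mean FPKM ran from Tcf7 (946) through Ets1 (274), Lef1 (171), Satb1 (117), Id3 (102), Foxp1 (48.6), Zeb1 (16.1), Bach2 (12.6) and Bcl6 (7.51) to Myb (5.41), and among neighbours in this order only the libraries of Satb1 and Id3 overlapped. Tcf7 lay above 99.3% of the genes of the table and Myb above 31.7%. After TCR activation the order was Tcf7 (126), Satb1 (107), Ets1 (42.1), Id3 (39.1), Foxp1 (37.3), Lef1 (32.4), Bach2 (14.8), Zeb1 (12.2), Myb (5.61) and Bcl6 (1.05). Tcf7 and Satb1 then overlapped, as did each neighbouring pair from Ets1 to Lef1. With PI3Kdi the order was Tcf7 (166), Satb1 (151), Ets1 (107), Id3 (50.4), Foxp1 (35.3), Lef1 (31.7), Bach2 (24.8), Zeb1 (10.7), Myb (5.04) and Bcl6 (0.55), with overlap of Tcf7 with Satb1 and of Foxp1 with Lef1.

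In CTL with IL-2 the most abundant of the 10 was no longer Tcf7 but Ets1. Mean FPKM ran from Ets1 (61.7), Satb1 (50.7), Lef1 (36.5) and Myb (28.2) through Id3 (16.2), Tcf7 (15.3), Foxp1 (13.6) and Zeb1 (11.8) to Bach2 (0.94) and Bcl6 (0.39). Lef1 overlapped with Myb, and each neighbouring pair from Id3 to Zeb1 overlapped. Without IL-2 Tcf7 led again at 599 FPKM, above 99.0% of the genes of the CTL table against 57.0% with IL-2, and it was followed by Ets1 (165), Satb1 (137), Lef1 (103), Foxp1 (26), Id3 (23.9), Myb (15.7), Bach2 (10.2), Zeb1 (9.36) and Bcl6 (6.36). Overlaps there were between Foxp1 and Id3, Bach2 and Zeb1, and Zeb1 and Bcl6.

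**Figure D1:**
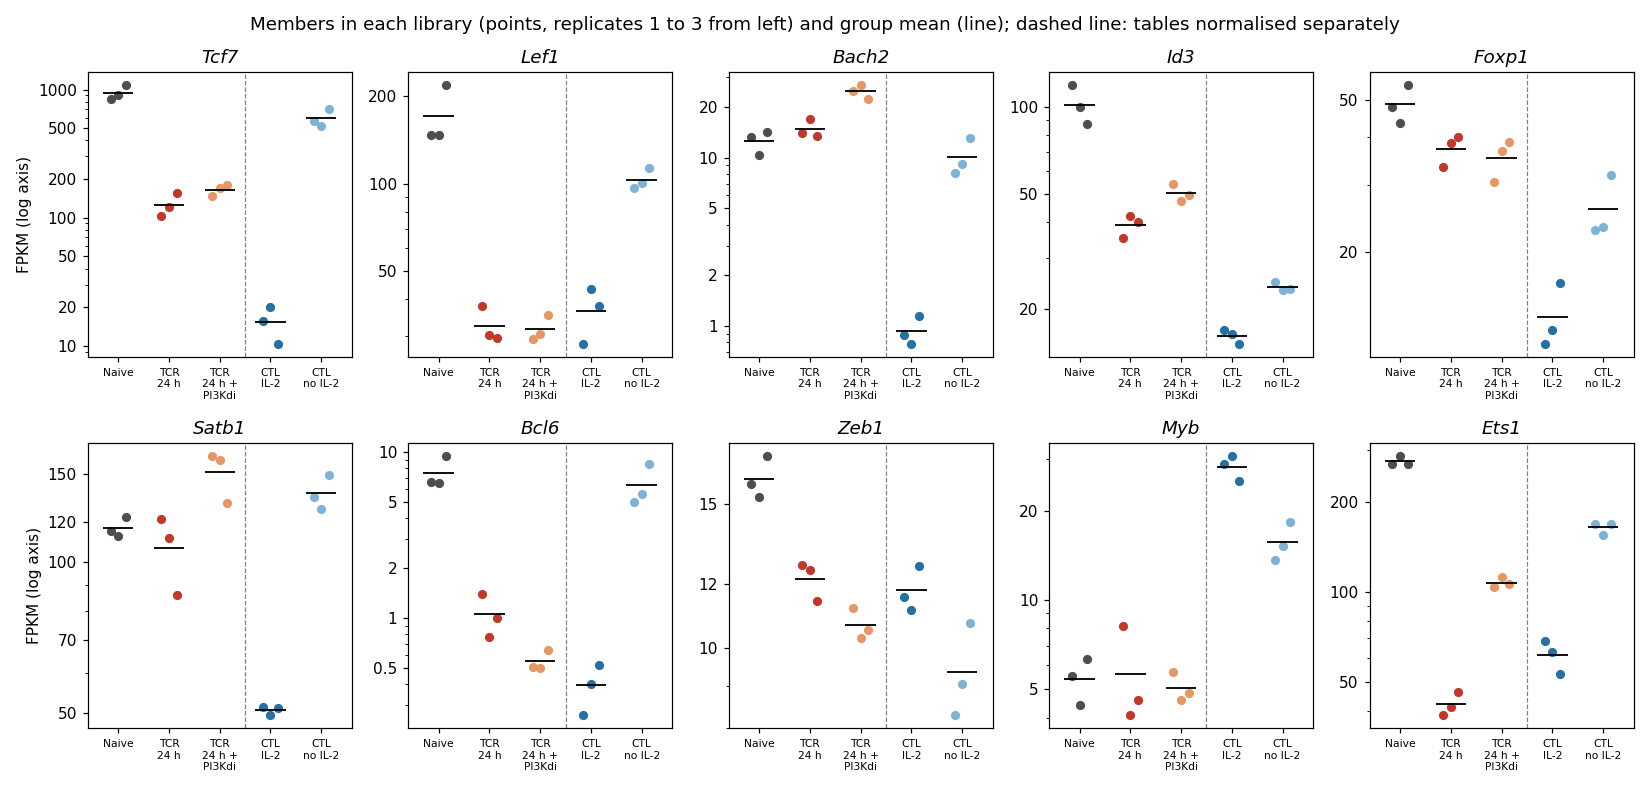
FPKM of each of the 10 factors (log axis) in the 15 libraries, with points for replicates 1 to 3 of each group and a line at the group mean. Tcf7 drops from 946 FPKM in naïve cells to 126 after TCR activation, and lies at 15.3 in CTL with IL-2 and 599 without, the dashed line separating the tables that were normalised separately.

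After 24 h of TCR activation a subset of these factors was lower than in naïve cells, and none was higher past the limits. The activated cells also differed from the naïve cells in culture with IL-2 and IL-12 and in the sort. No group was cultured without peptide, so these differences cannot be told apart from the TCR signal. A gene was called when its limma adjusted p was under 0.05 and its level changed by more than 2-fold. Tcf7, Lef1, Id3, Bcl6 and Ets1 fell, which is 5 of 10 factors where 23.7% of all genes were called lower, and 0 of 10 were called higher by limma where 25.0% of all genes were. No factor had a higher level at an unadjusted p under 0.05 either, and the median log2 fold change over the 10 was -0.89. In bulk RNA, fewer cells that carry a transcript and less of it per cell cannot be told apart.

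Tcf7, whose product TCF-1 is named for its role in T cells, was at 838, 912 and 1088 FPKM in the naïve libraries and at 104, 120 and 155 after TCR activation. The groups were far apart, with 13.3% of the naïve mean left after activation. Lef1, its relative, went from 148, 147 and 219 FPKM to 37.9, 30.1 and 29.4. Naïve replicate 3 was the highest library for Lef1, and every activated library was below every naïve one. The log2 fold change of Lef1 was -2.38 (standard error, SE, 0.16, adjusted p = 7.7e-08), a 5.21-fold drop.

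Ets1, the founding member of the ETS family, was at 269, 285 and 268 FPKM in naïve cells and at 38.7, 41.2 and 46.5 after TCR activation. Its replicates were tight in naïve cells, with an SD of 3.54% of the mean, and its log2 fold change of -2.70 had the smallest SE of the 10 factors (0.083, adjusted p = 2.1e-10). Bcl6, the germinal centre and memory repressor, fell from a low level to a lower one, from 6.59, 6.48 and 9.47 FPKM to 1.39, 0.77 and 1. Its log2 fold change was -2.74 (SE 0.23, adjusted p = 5.6e-07). Id3 fell least among those called, from 119, 99.7 and 87 FPKM to 35.3, 42.1 and 39.9, a log2 fold change of -1.37 (SE 0.12, adjusted p = 6.3e-07). For these 5 genes no activated library reached a naïve one, and the share of all genes without overlap was not counted.

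The other 5 factors stayed within 2-fold of naïve cells. Foxp1 (43.4 to 54.7 FPKM in naïve cells, 33.3 to 40 after activation) and Zeb1 (15.3 to 17.2 and 11.4 to 12.6) had log2 fold changes of -0.38 and -0.40 with adjusted p of 0.012 and 0.002, and neither overlapped between the groups. Bach2 (10.3 to 14.1 and 13.5 to 17.1 FPKM), Satb1 (113 to 123 and 86.2 to 122) and Myb (4.41 to 6.29 and 4.07 to 8.17) overlapped, at log2 fold changes of 0.24, -0.15 and -0.0025 and adjusted p of 0.13, 0.3 and 0.99. Without the fold limit 7 of 10 factors passed the adjusted p, against 80.8% of all genes, so passing at any fold was no more frequent among them. Myb after TCR activation varied most of all factors within a group, with replicate 1 at 8.17 FPKM and the others at 4.07 and 4.58. Its log2 fold change was -0.28 without replicate 1 and 0.22 without replicate 3, and it was 0.077 with libraries scaled to a common median. The direction for Satb1 turned to 0.036 without replicate 3, and neither gene passed the test in any of these settings.

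Other regulators and surface genes of the naïve state were mostly called lower as well. These lists and those used below were chosen with earlier results of these data known, and some genes stand on more than 1 of them. Of 18 measured factors of a list of other naïve and memory regulators, 14 were called lower and 1 higher, the median log2 change being -1.86 where all genes had 0.0054 and 23.7% of them were called lower and 25.0% higher. Klf2, which drives the genes of lymph node homing, fell 313-fold, Gata3 31.8-fold, Klf3 16.4-fold and the antiproliferative gene Btg2 9.74-fold, and the HMG-box gene Tox2 rose 2.35-fold. Among 16 surface and signalling genes of the naïve state, 12 were called lower and 1 higher (median -3.06). Ccr9, a gut-homing chemokine receptor, fell 307-fold, S1pr1, the receptor for exit from lymph nodes, 63.4-fold, Il6ra 42.7-fold and Ltb 28.9-fold, and the costimulatory receptor gene Cd28 rose 3.42-fold.

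Beside the same shares of all genes, 23.7% lower and 25.0% higher, 13 of 20 factors listed as effector regulators were called higher and 4 lower after TCR activation (median 2.03). Batf3 was blank in the table, read as 0 FPKM, in all 3 naïve libraries and at 89.2, 55.6 and 65 FPKM after activation, Bhlhe40 rose 304-fold, Irf8 243-fold and Irf4 186-fold, and those called lower were Tox (6.91-fold), Rora (2.76-fold), Ikzf2 (2.65-fold) and Stat4 (2.06-fold). Of the 21 measured family relatives of the 10 factors, 9 were called lower and 5 higher (median -0.43), the latter about as often as all genes. Bach1 fell 5.46-fold and the ETS family genes Etv3, Elf4 and Elk3 5.30-fold, 4.67-fold and 4.58-fold. The relatives of Myb rose, Mybl2 61.2-fold and Mybl1 5.07-fold, as did Zeb2 (from a blank, 0.01 FPKM and a blank in naïve cells to 1.86, 1.72 and 1.31) and Etv6 (3.98-fold). Of 31 partners and cofactors 13 were called lower and 4 higher (median -0.64): the Wnt coactivator gene Bcl9l fell 16.6-fold, the Groucho corepressor gene Tle4 6.31-fold, Runx1 4.93-fold and Aes 3.94-fold, while the small Maf genes Maff and Mafg, partners of BACH proteins, rose 6.37-fold and 5.54-fold and Hdac2 2.37-fold, and Ctbp2 went from blanks in all 3 naïve libraries to 0.29, 0.24 and 0.13 FPKM. Folds of genes that average under 1 FPKM in a group, here and in the comparisons that follow, depend on the pseudocount of 0.1. Over the same comparison Cd79b fell 6.59-fold while Cd79a, Ms4a1 and Cd22 were not called. Of the myeloid and dendritic list Itgam (a mean of 0.26 FPKM to 0.01) was called lower and Zbtb46 (0.08 to 0.57) higher, and Cst3, Cd74, H2-Aa and H2-Ab1 were not called. Of the CD4 T cell list Ctla4 (a mean of 0.31 FPKM to 120), Zbtb7b (0.09 to 0.54) and Cd40lg (10 to 24.9) were called higher, and Foxp3 was not called. The part of these genes in the changes above was not tested.

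With PI3K p110δ inhibited during activation, Ets1 was the only factor of the 10 past the limits, and the median log2 fold change over the 10 was 0.17. Ets1 was at 104, 112 and 107 FPKM with PI3Kdi, above every library without it (38.7 to 46.5), a log2 fold change of 1.35 (SE 0.083, adjusted p = 4.6e-06) or 2.55-fold. Its level was 39.2% of the naïve mean with PI3Kdi and 15.4% without. This 1 of 10 called higher compares with 3.04% of all genes, and 0 of 10 were called lower by limma where 2.10% of all genes were, with 1 factor, Bcl6, lower at an unadjusted p under 0.05.

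Below 2-fold, Bach2, Satb1 and Bcl6 also passed the adjusted p, which makes 4 of 10 factors at any fold against 17.5% of all genes. Bach2 was at 24.9, 27.1 and 22.3 FPKM with PI3Kdi and at 14, 17.1 and 13.5 without, 1.67-fold apart (log2 0.74, SE 0.14, adjusted p = 0.0045). Satb1 was at 163, 160 and 131 FPKM against 122, 112 and 86.2, with replicate 3 the lowest of each group, and its log2 fold change was 0.51 (adjusted p = 0.02). Bcl6 differed from these in direction: it was at 0.51, 0.5 and 0.64 FPKM with PI3Kdi against 1.39, 0.77 and 1, a log2 fold change of -0.80 (SE 0.23, adjusted p = 0.036). Leaving out replicates ended these passes in part or, for Bcl6, each time: adjusted p was 0.06 without replicate 1 for Bach2, 0.056 and 0.19 without replicates 1 and 2 for Satb1, and 0.22, 0.13 and 0.07 without replicates 1, 2 and 3 for Bcl6. With the naïve libraries left out of the fit it was 0.052 for Satb1 and 0.064 for Bcl6, and with a pseudocount of 1 it was 0.095 for Bcl6.

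Tcf7 and Id3 were higher with PI3Kdi in 3 of 3 pairs of libraries from the same pool, at log2 fold changes of 0.41 and 0.37, without passing the test. Their adjusted p was 0.085 and 0.054, and with the pool as a block it was 0.014 for Tcf7 and 0.067 for Id3. Tcf7 also passed without replicate 3 (adjusted p = 0.044), and Id3 with the naïve libraries left out of the fit (0.037). Lef1 (29.2 to 35.5 FPKM with PI3Kdi), Foxp1 (30.5 to 38.7), Zeb1 (10.3 to 11.2) and Myb (4.59 to 5.68) had log2 fold changes of -0.03, -0.08, -0.19 and -0.09, with 95% intervals from -0.38 to 0.32, -0.34 to 0.18, -0.39 to 0.022 and -0.61 to 0.43. Foxp1 and Zeb1 were lower with PI3Kdi in 3 of 3 pairs, the groups did not overlap for Zeb1, and with the pool as a block their adjusted p was 0.6 and 0.24. The values for Lef1 and Myb turned to 0.14 and 0.13 without replicate 1.

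Genes of the lists around the 10 factors also differed with PI3Kdi, where 3.04% of all genes were called higher and 2.10% lower. Of 16 surface and signalling genes of the naïve state 7 were called higher and 2 lower (median 0.99 where all genes had -0.0076), led by Il6ra at 4.19-fold, Ccr9 at 3.77-fold and the gut-homing integrin gene Itgb7 at 3.77-fold, while Dapl1 was 5.98-fold and Cxcr5 2.31-fold lower. Of 18 other naïve and memory factors 3 were called higher (Klf2 19.4-fold, Tox2 5.81-fold and Ikzf3 2.54-fold) and 3 lower (Klf6 3.61-fold, Klf7 2.30-fold and Sox4 2.04-fold), with a median of 0.15. Of 20 effector factors 5 were called lower, among them Zeb2 (6.62-fold), Bhlhe40 (4.0-fold), Batf3 (3.67-fold) and Eomes (2.82-fold), and 2 higher, Id2 (3.06-fold) and Hif1a (2.20-fold), with a median of -0.21. Of 21 family relatives Zeb2 alone was called lower, and Id2, Tcf7l1 (2.28-fold) and Bach1 (2.11-fold) were called higher. None of the 31 partners and cofactors was called by limma, and 2 were lower and 5 higher at an unadjusted p under 0.05. Among B cell genes Ms4a1 (a mean of 0.063 FPKM against 0.73) and Cd22 (0.033 against 0.53) were called lower with PI3Kdi, and Cd79b (3.29 against 3.02, adjusted p = 0.63) and Cd79a (0.33 against 0.79, adjusted p = 0.16) were not called. The MHC class II genes Cd74 (3.12 against 16.1), H2-Aa (0.57 against 3.09) and H2-Ab1 (0.87 against 5.07) were called lower, as was the dendritic cell factor gene Zbtb46 (0.12 against 0.57), and Cst3 (43 against 43.9) and Itgam (0.053 against 0.01) were not. Of the CD4 T cell list Cd40lg (4.75 against 24.9) was called lower, and Ctla4, Zbtb7b and Foxp3 were not called. The part of these genes in the differences above was not tested.

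Set against naïve cells, cells activated with PI3Kdi had Tcf7, Lef1, Id3, Bcl6 and Ets1 called lower. The naïve libraries are the ones used for activation without PI3Kdi, so the values are given side by side. The log2 fold changes from naïve cells with PI3Kdi were -2.51 for Tcf7, -2.41 for Lef1, -1.01 for Id3, -3.53 for Bcl6 and -1.35 for Ets1, beside -2.92, -2.38, -1.37, -2.74 and -2.70 without PI3Kdi. The median over the 10 was -0.80. The 5 of 10 called lower compare with 21.3% of all genes, and 0 of 10 called higher by limma with 23.6%, while 2 factors, Bach2 and Satb1, were higher at an unadjusted p under 0.05. At any fold 9 of 10 passed, all but Myb, against 79.1% of all genes.

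Bach2 and Id3 sat at the 2-fold limit in this comparison. Bach2 stood at 197% of its naïve mean with PI3Kdi, and at 118% without, and its log2 fold change of 0.98 (SE 0.14, adjusted p = 5.2e-05) became 1.06 with libraries scaled to a common median, 1.02 without replicate 1 and 1.14 without replicate 3, each past the limit. Id3 kept 49.4% of its naïve level, and its log2 fold change of -1.01 became -0.99 with a pseudocount of 1, -0.93 with median scaling, -0.94 without replicate 1 and -0.98 without replicate 2, each inside the limit. Satb1 was at 129% of its naïve mean (log2 0.36, adjusted p = 0.022), and without replicates 1 and 2 its adjusted p was 0.11 and 0.19. Foxp1 and Zeb1 were at 72.6% and 66.3% (log2 -0.46 and -0.59, adjusted p = 0.004 and 0.00014), and Myb was at 93.2% (log2 -0.09, adjusted p = 0.73).

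The lists share their naïve libraries with the comparison of activation alone and naïve cells, and of all genes 21.3% were called lower and 23.6% higher with PI3Kdi than in naïve cells. Of other naïve and memory factors 14 of 18 were called lower and 1 higher (median -1.75), with Gata3 38.1-fold, Klf2 16.2-fold, Klf3 15.8-fold and Btg2 8.12-fold below naïve cells and Tox2 13.6-fold above. Of the naïve-state surface genes 10 of 16 were called lower and 1 higher (median -1.51), with Ccr9 81.3-fold, S1pr1 62.7-fold, Dapl1 61.6-fold and Ltb 21-fold lower and Cd28 6.96-fold higher. Of 20 effector factors 14 were called higher, among them Irf4 (273-fold), Irf8 (127-fold), Bhlhe40 (76.1-fold) and Batf3 (blank in all 3 naïve libraries, 21.8, 13.1 and 22.6 FPKM with PI3Kdi), and 4 lower, Tox (8.07-fold), Rora (4.33-fold), Stat4 (3.57-fold) and Eomes (2.49-fold), with a median of 1.91. Of 21 family relatives 9 were called lower (Elk3 6.05-fold, Tcf7l2 4.02-fold, Elf4 3.98-fold and Elf1 3.58-fold were the largest) and 6 higher (Mybl2 52-fold, Mybl1 6.35-fold, Etv6 4.75-fold and Id2 3.27-fold), and of 31 partners 10 were called lower, led by Bcl9l (12.6-fold), Runx1 (5.81-fold), Tle4 (5.75-fold) and Aes (3.13-fold), and 4 higher, Maff (6.00-fold), Mafg (4.84-fold), Hdac2 (2.15-fold) and Ctbp2 (blank in all 3 naïve libraries, 0.17, 0.1 and 0.2 FPKM with PI3Kdi). Their medians were -0.30 and -0.51, against 0.0036 for all genes, and the relatives were called higher at a rate near that of all genes. Genes of other cell types were lower too: Cd79b 6.06-fold, Cd79a 4.06-fold, Ms4a1 3.40-fold and Cd22 3.29-fold among B cell genes, and H2-Aa 6.43-fold, Cd74 3.26-fold, H2-Ab1 2.87-fold and Itgam 2.40-fold on the myeloid and dendritic list, of which Cst3 and Zbtb46 were not called. Of the CD4 T cell list Ctla4 (a mean of 0.31 FPKM to 122) and Zbtb7b (0.09 to 0.95) were called higher. Cd40lg (10 to 4.75) was called lower, and Foxp3 was not called. The part of these genes in the losses of the factors was not tested.

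In CTL, taking IL-2 away for 24 h raised 6 of the 10 factors and lowered none past the limits. Tcf7, Bcl6, Bach2, Lef1, Satb1 and Ets1 rose, where 14.3% of all genes were called higher, and 0 of 10 were called lower by limma where 13.9% were, with Zeb1 and Myb, 2 factors, lower at an unadjusted p under 0.05. All 10 passed the adjusted p at any fold, as did 71.9% of all genes. For all 10 the libraries of the groups did not overlap, and the share of all genes without overlap was not counted. The median log2 fold change over the 10 was 1.43, and over all genes -0.0009.

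Tcf7 made the largest change of the 10. It was at 15.6, 20.1 and 10.3 FPKM in CTL with IL-2 and at 564, 523 and 710 without, so that CTL with IL-2 held 2.56% of the level without it. Its log2 fold change was 5.32 (SE 0.21, 95% interval from 4.84 to 5.80, adjusted p = 1.7e-07), or 39.9-fold. Lef1, its relative, moved far less, from 28.1, 43.4 and 38.1 FPKM to 96.4, 101 and 113, a log2 fold change of 1.52 (SE 0.15, adjusted p = 1.3e-05). CTL replicate 1 with IL-2 was the lowest library for Lef1.

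The repressors Bcl6 and Bach2 had the lowest levels of the 10 factors in CTL with IL-2 and rose without it. Bcl6 was at 0.26, 0.4 and 0.52 FPKM with IL-2, above 4.81% of the genes of the table, and at 5.04, 5.57 and 8.47 without, a log2 fold change of 3.71 (SE 0.26, adjusted p = 1.8e-06). Bach2 was at 0.88, 0.78 and 1.15 FPKM with IL-2 and at 8.15, 9.17 and 13.1 without, a log2 fold change of 3.29 (SE 0.21, adjusted p = 1.1e-06), or 9.79-fold. With a pseudocount of 1 these log2 fold changes were 2.38 and 2.51, and both stayed called. For both genes replicate 3 was the highest in each group.

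Satb1 and Ets1, abundant in CTL of either kind, rose by similar amounts. Satb1 was at 51.4, 49.5 and 51.1 FPKM with IL-2 and at 135, 128 and 149 without (log2 1.43, SE 0.079, adjusted p = 5.9e-07), and Ets1 went from 68.8, 63 and 53.2 FPKM to 170, 155 and 170 (log2 1.42, SE 0.10, adjusted p = 2e-06). Foxp1 (11.5, 12.6 and 16.6 FPKM with IL-2, 22.9, 23.3 and 31.8 without) was 1.91-fold higher, at a log2 fold change of 0.93 (adjusted p = 0.00064) that reached 1.00 and the limit with libraries scaled to a common median. Id3 was at 16.9, 16.4 and 15.2 FPKM with IL-2 and 24.9, 23.3 and 23.4 without, 1.48-fold apart, with the smallest spread of the 10 in CTL without IL-2 (SD 3.72% of the mean).

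Myb and Zeb1 were the 2 factors with lower levels in CTL without IL-2. Myb was at 28.7, 30.6 and 25.3 FPKM with IL-2 and 13.6, 15.2 and 18.4 without, at a log2 fold change of -0.84 (adjusted p = 0.0002) that was -1.04, past the limit, without replicate 3. Zeb1 was at 11.6, 11.2 and 12.6 FPKM with IL-2 and 8.28, 9.05 and 10.7 without, with the smallest difference of the 10 (log2 -0.34, adjusted p = 0.028). For Zeb1 the adjusted p was 0.068 with median scaling, 0.13 without replicate 1 and 0.11 without replicate 2.

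The measured naïve-state surface genes all moved in 1 direction in CTL, unlike the factors, of which Myb and Zeb1 had lower levels without IL-2. All 14 measured of the 16 were called higher (median 2.53), beside 14.3% of all genes, and limma put 0 lower, also at an unadjusted p under 0.05: Il6ra was 16.3-fold, S1pr1 15.8-fold, the costimulatory receptor gene Cd27 13.8-fold and Slamf6 12.4-fold higher. Of 17 measured other naïve and memory factors 10 were called higher, led by Klf2 (13.6-fold), Btg2 (8.45-fold), Klf3 (7.73-fold) and Btg1 (5.73-fold), and 0 lower by limma, with 1 lower at an unadjusted p under 0.05 (median 1.09). Of 20 effector factors 5 were called lower, among them Irf8 (11.7-fold), Eomes (8.13-fold), Myc (4.96-fold) and Xbp1 (3.81-fold), and 3 higher, Ikzf2 (7.78-fold), Rora (5.30-fold) and Stat4 (3.16-fold), with a median of -0.22. Of all genes 13.9% were called lower and 14.3% higher, and the effector factors were called higher about as often.

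Family relatives and partners did not stand out in CTL from all genes, of which 13.9% were called lower and 14.3% higher. Of 19 relatives 2 were called lower, Id1 (16.3-fold) and Mybl2 (3.42-fold), and 3 higher, Elk4 (3.08-fold), Tcf7l1 (2.55-fold) and Bach1 (2.47-fold), with a median of -0.27. Of 30 partners 3 were called lower, Mafg (4.04-fold), Maff (3.88-fold) and Hdac2 (2.06-fold), and 3 higher, the corepressor genes Tle2 (4.03-fold) and Tle4 (2.54-fold) and the coactivator gene Bcl9l (2.69-fold), with a median of 0.11. Cd79b was 3.64-fold higher in CTL without IL-2. Of the CD4 T cell list Cd4 (0.23 to 1.4 FPKM, adjusted p = 0.00099) and Ctla4 (22.5 to 130) were called higher, and Zbtb7b and Cd40lg were higher within 2-fold (log2 0.58 and 0.74). Of the NK cell genes Klrb1c was higher within 2-fold (log2 0.70, adjusted p = 0.018) and Tyrobp did not pass (log2 0.45, adjusted p = 0.25). The myeloid list went both ways, at summed means of 138 FPKM with IL-2 and 137 without: Itgam (0.29 to 4.09 FPKM) and Itgax (0.31 to 4.55) were called higher, Fcer1g (47 to 9.48) was called lower, and within 2-fold Cst3 (log2 0.51, adjusted p = 0.00042) and Cd74 (0.95, 0.034) were higher and H2-Ab1 (-0.38, 0.016) lower. The part of these genes in the rise of the factors was not tested.

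**Figure D2:**
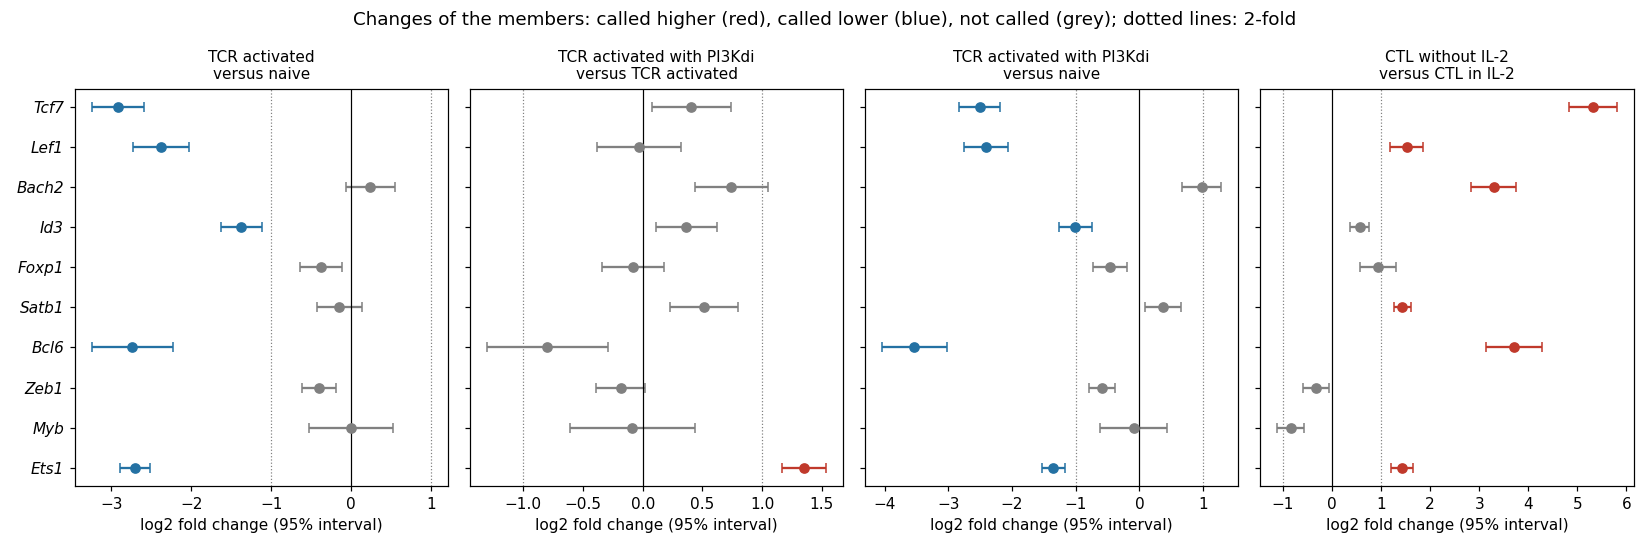
Log2 fold change of each of the 10 factors (points) with its 95% interval (bars) in the 4 comparisons, red for called higher, blue for called lower and grey for not called, with dotted lines at 2-fold. TCR activation has 5 blue points, PI3Kdi against activation alone has a red point for Ets1, and IL-2 withdrawal in CTL has 6 red points with Tcf7 the farthest out at 5.32.

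Balances between a factor and its antagonist or relative were followed as the log2 ratio of their FPKM in each library. In an exact two-sided permutation test of 3 against 3 libraries the smallest possible p is 0.1, and over the 20 comparisons of 5 ratios the lowest adjusted p was 0.143, so none passed. The ratios of the groups did not overlap in 14 of the 20.

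Id3 and Id2 encode related inhibitors of E proteins, Id3 linked to memory precursors and Id2 to effector cells. The log2 ratio of Id3 to Id2 was 3.28, 2.72 and 2.81 in naïve cells, 1.43, 1.95 and 1.02 after activation alone and 0.55, 0.23 and -0.11 with PI3Kdi. The ratio thus fell from 7.66-fold in favour of Id3 in naïve cells to near even with PI3Kdi, where Id2 was at 37.1, 40.4 and 53.3 FPKM against 13.1, 10.8 and 19.6 in activation alone. In CTL Id2 exceeded Id3 by 42.7-fold with IL-2 (log2 ratio -5.08, -5.39 and -5.78) and by 15.8-fold without (-3.92, -4.09 and -3.94).

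Bcl6 and Prdm1 encode BCL-6 and BLIMP-1, which repress each other's genes. The log2 ratio of Bcl6 to Prdm1 was 4.86, 4.90 and 4.58 in naïve cells, -1.66, -2.16 and -0.31 after activation alone and -3.13, -2.42 and -1.80 with PI3Kdi, so activation turned it from a 27.5-fold excess of Bcl6 to a 2.60-fold excess of Prdm1, and the activated groups overlapped. Within each pool of cells the ratio was lower with PI3Kdi than without. Naïve Prdm1 was at 0.13, 0.12 and 0.3 FPKM, so the size rests on the pseudocount: the difference in log2 ratio between activated and naïve cells was -6.16 with 0.1, -3.78 with 1 and -6.83 with 0.01. In CTL the ratio was -4.46, -3.92 and -3.42 with IL-2 and -0.52, -0.23 and 0.79 without. That shift came with a called change in Bcl6 and none in Prdm1, which was at 6.54 to 7.85 FPKM with IL-2 and 4.85 to 7.25 without (log2 fold change -0.24, adjusted p = 0.19).

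Zeb1 and its paralog Zeb2 are regulators of opposite leaning in CD8 T cells, Zeb2 being tied to terminal effector cells. The mean log2 ratio of Zeb1 to Zeb2 was 7.29 in naïve cells, where Zeb2 was blank in replicates 1 and 3, read as 0 FPKM, and at 0.01 in replicate 2, so that the ratio rests on the pseudocount of 0.1, then 2.84 after TCR activation and 5.38 with PI3Kdi. Zeb2 was at 1.86, 1.72 and 1.31 FPKM after activation and 0.19, 0.16 and 0.13 with PI3Kdi. In CTL the ratio was 4.17 with IL-2 and 3.98 without, and the libraries overlapped.

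The ratio of Tcf7 to Lef1 changed sides between CTL with and without IL-2. Its mean log2 value was 2.48 in naïve cells, 1.95 after activation alone and 2.38 with PI3Kdi, with overlap in each comparison, and in CTL it was -0.84, -1.11 and -1.88 with IL-2 and 2.55, 2.38 and 2.65 without. Lef1 exceeded Tcf7 in each of the 3 CTL libraries with IL-2 and in none of the other 12. Bach2 and Bach1 encode related proteins that share small Maf partners. The log2 ratio of Bach2 to Bach1 was 0.54, 0.12 and 0.73 in naïve cells, 3.47, 3.50 and 2.48 after TCR activation, 2.72, 2.94 and 2.77 with PI3Kdi, -2.70, -2.66 and -2.18 in CTL with IL-2 and -0.76, -0.54 and -0.28 without. After TCR activation Bach1 fell from 9.1, 9.53 and 8.5 FPKM to 1.17, 1.42 and 2.33 while Bach2 was not called.

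**Figure D3:**
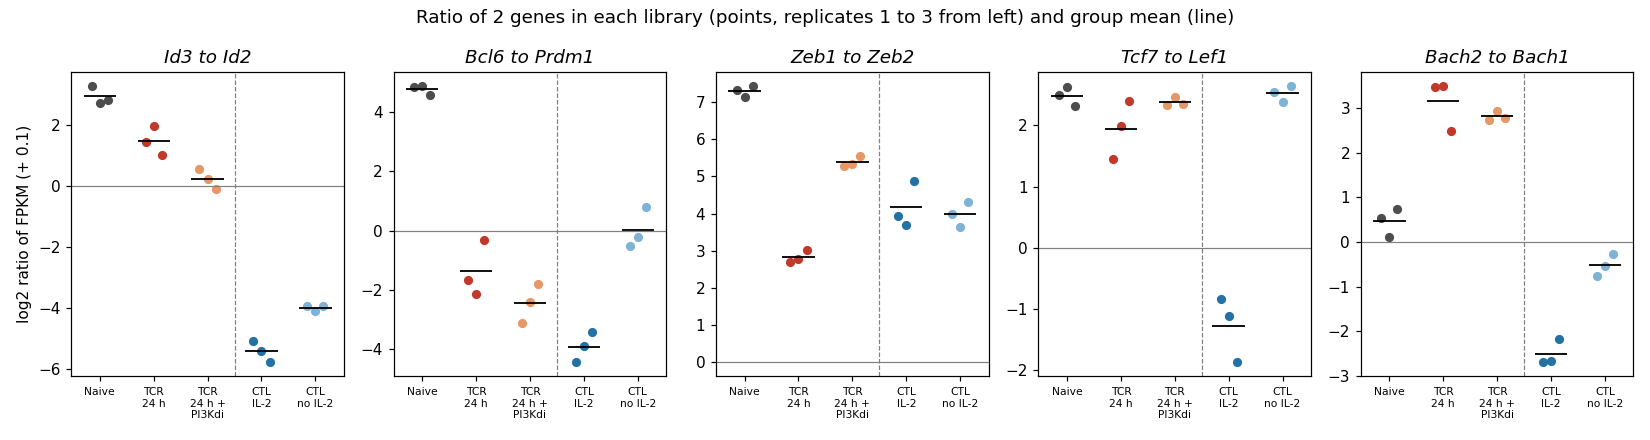
Log2 ratio of the FPKM (with 0.1 added) of 5 pairs of genes in each of the 15 libraries, with points for replicates 1 to 3 of a group and a line at the group mean. The ratio of Tcf7 to Lef1 lies below 0 in CTL with IL-2 alone, and that of Bcl6 to Prdm1 drops from 4.78 in naïve cells to -1.38 after TCR activation.

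For all 10 factors, the genes of most similar pattern over the 15 libraries were sought among 9625 genes with a mean of at least 1 FPKM in both tables, each table centred on its own mean, by the root mean square difference in log2 FPKM. The nearest 3 are given for 4 factors, picked after the values were seen, and for the other 6 the nearest gene lay at differences from 0.068 (Ino80, for Zeb1) to 0.17 (Ptpn23, for Myb). Nearest to Tcf7 were Vipr1, the gene of a receptor for vasoactive intestinal peptide, at a difference of 0.44, the phosphodiesterase gene Pde2a at 0.49 and the ubiquitin ligase gene Fbxo32 at 0.59. Vipr1, for example, had group means of 16.1, 0.96 and 2.51 FPKM in naïve, activated and PI3Kdi-treated cells, and 0.09 and 5.28 in CTL with and without IL-2. Nearest to Bcl6 were Serpini1 (0.43), the cell cycle inhibitor gene Cdkn1b (0.47) and the MHC class I gene H2-K2 (0.49), and Cdkn1b went through means of 49.4, 7.45, 6.23, 10.4 and 60.1 FPKM in the same order of groups.

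Bach2, with its rise in CTL without IL-2 and no called change after activation, lay nearest to the selenoprotein gene Sepp1 (0.34), the NADPH oxidase gene Ncf1 (0.38) and Fam46c (0.39). Sepp1 had means of 6.16, 9.29 and 9.51 FPKM in naïve, activated and PI3Kdi-treated cells and of 21.1 and 239.9 in CTL with and without IL-2. Id3 had closer neighbours, Kbtbd2 at 0.087, the lymphoid factor gene Ikzf1 at 0.11 and Wdr37 at 0.11. Ikzf1, the gene of IKAROS, was at means of 218, 86.4 and 105 FPKM in naïve, activated and PI3Kdi-treated cells and of 96.6 and 162 in CTL with and without IL-2.

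The 10 genes lie on 9 chromosomes of mm10, with Bach2 (chromosome 4 from 32238413 to 32586109, Entrez 12014) and Id3 (chromosome 4 from 136143822 to 136145392, Entrez 15903) on the same chromosome and far apart. Tcf7 (Entrez 21414) is on chromosome 11 from 52246527 to 52283383, Lef1 (16842) on chromosome 3 from 131110297 to 131224357, Bcl6 (12053) on chromosome 16 from 23965050 to 23988866 and Ets1 (23871) on chromosome 9 from 32636241 to 32757820. Foxp1 (108655) is on chromosome 6 from 98925342 to 99522746, Satb1 (20230) on chromosome 17 from 51736187 to 51833290, Myb (17863) on chromosome 10 from 21124930 to 21160984 and Zeb1 (21417) on chromosome 18 from 5591327 to 5775468. Annotated antisense genes share 13.7% of the exon bases of Lef1, 5.4% of those of Bach2 and 6.26% of those of Myb, and other opposite-strand genes 1.93% of those of Zeb1, 0.673% of those of Satb1 and 0.313% of those of Bcl6. Genes on the same strand share 2.18% and 0.982% of the exon bases of Foxp1 and 0.82% of those of Satb1. No annotated gene shares exon bases with Tcf7, Id3 or Ets1. The libraries were made with a stranded kit, and the strand setting of the authors' counting is not stated.

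Sequences before the start sites of 8 of the 10 factors were searched for short motifs. The motifs belong to factors downstream of PI3K and IL-2 and to the factors themselves. The search took 19 windows of the 250 bases before an annotated start in RefSeq (GRCm38.p6). No window of Ets1 or Zeb1 was searched, so the counts below do not cover these genes. The motifs, chosen with the values above in view and read on both strands, were GTAAACA (FOXO), CTTTGA (TCF and LEF), CCGGAA (ETS), TGAGTCA (BACH and AP-1) and TTCNNNGAA (STAT). FOXO letters were in 0 of the 19 windows and in 3.17% of 32851 windows of all genes, BACH letters in 0 and 4.46%, TCF and LEF letters in 4 and 13.8%, ETS letters in 3 and 12%, and STAT letters in 3 and 7.02%. Counted by gene, TCF and LEF letters were in 4 of the 8 factors, ETS letters in 3 and STAT letters in 2. Some windows of the same gene overlap, so the 19 are not independent. A match is a description of letters and not of binding.

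The windows of Bach2 and Bcl6, the repressors called higher in CTL without IL-2, are shown 5′ to 3′ as examples, with capitals for every motif match. They include all 3 windows with STAT letters. No window of Tcf7, Lef1 or Satb1, also called higher there, holds STAT letters, and Ets1 had no window. Whether any match bears on these transcripts was not tested. The Bach2 window is chr4:32417185-32417434 on the plus strand, before a start inside the annotated span of the gene, and holds 1 match each for STAT, TCF and LEF, and ETS. The Bcl6 windows are chr16:23988853-23989102 and chr16:23981284-23981533 on the minus strand. The former holds 1 STAT match. The latter holds 3 STAT matches, with an ETS match inside the last of them, and 1 TCF and LEF match.
Bach2: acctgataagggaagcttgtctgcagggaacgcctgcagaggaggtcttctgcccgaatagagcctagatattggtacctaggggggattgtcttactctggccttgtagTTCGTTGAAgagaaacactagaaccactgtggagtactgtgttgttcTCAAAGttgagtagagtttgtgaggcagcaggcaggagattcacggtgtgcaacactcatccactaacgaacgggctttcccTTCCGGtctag
Bcl6, upstream start: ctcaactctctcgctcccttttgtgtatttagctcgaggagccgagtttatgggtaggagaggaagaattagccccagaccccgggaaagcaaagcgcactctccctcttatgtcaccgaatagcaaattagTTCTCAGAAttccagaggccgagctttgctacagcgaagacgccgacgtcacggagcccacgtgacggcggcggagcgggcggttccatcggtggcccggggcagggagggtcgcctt
Bcl6, downstream start: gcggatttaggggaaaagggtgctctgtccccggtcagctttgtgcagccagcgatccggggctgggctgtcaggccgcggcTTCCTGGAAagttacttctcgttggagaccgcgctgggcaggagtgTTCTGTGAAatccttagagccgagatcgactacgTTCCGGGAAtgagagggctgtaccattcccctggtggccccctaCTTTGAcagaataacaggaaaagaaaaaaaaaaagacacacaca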

How the data were processed

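The authors deposited FPKM in 2 tables, 9 libraries of naïve and activated CD8 T cells and 6 of CTL. Their notes name STAR 2.5.2b, Subread 1.5.1 and mm10, their methods give TMM scaling, and blank cells in the table of naïve and activated cells were read as 0. Samples were grouped by title and replicate number, since the treatment labels of CTL replicates 2 and 3 with IL-2 name other interleukins. Each table was fitted with limma 3.58.1 (R 4.3.3) on log2(FPKM + 0.1) with empirical Bayes and an intensity trend, p-values were adjusted by Benjamini-Hochberg over the whole table, and genes were called at adjusted p under 0.05 and more than 2-fold. Deviations from the group mean correlated over genes between libraries of the same replicate number at 0.27, 0.2 and 0.51 for PI3Kdi and activation alone, at -0.14, 0.23 and -0.18 for activation and naïve cells, and at 0.12, 0.17 and 0.26 in CTL. Ratios took an exact two-sided permutation test within a table. From each list, genes among the up to 4 largest called changes in each direction and the ratio partners are named, and other genes were named after their values were seen. The 10 factors and all lists were chosen with earlier results of these data known. Alternatives were the pseudocount, a minimum level, median scaling, the replicate block, no trend, leaving out replicates, fitting 2 groups alone and other fold limits. Code was tested on simulated data, and figures used Python 3.11.15 with numpy 2.4.6 and matplotlib 3.10.9.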

Additional observations from a re-analysis of the deposited data

How the results depend on the processing

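The direction and side of the limits held for 373 of the member fold changes under the alternatives, with 5 gaining a call, 4 losing it and 8 changing sign, and 136 ratio differences kept theirs. Of the counts of called factors, 82 stayed within 1.5 times and 12 moved. With the replicate block, which pairs libraries by replicate number, every count of called factors stayed as it was (5 lower for TCR activation against naïve cells, 6 higher in CTL without IL-2).

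A fold limit of 1.5 gave 1 factor lower and 2 higher with PI3Kdi against activation alone, 1 higher with PI3Kdi against naïve cells and 1 lower in CTL without IL-2. No fold limit gave 1 lower and 3 higher, 2 higher, and 2 lower in the same order. Against naïve cells, factors higher with PI3Kdi numbered 1 with median scaling and 0 to 1 when a replicate was left out, and factors lower in CTL without IL-2 numbered 0 to 1. Over all genes, PI3Kdi against activation alone gave 342 called higher and 237 lower. These numbers were 197 and 126 without replicate 2, and 170 and 141 with a pseudocount of 1. The 1.5-fold and absent limits are looser by construction, and the cause of the other moves was not tested.

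Signs changed only for values that were not called. Myb after TCR activation was 0.0035 with a pseudocount of 1, 0.077 with median scaling and -0.28 to 0.22 when a replicate was left out, and Satb1 was -0.26 to 0.036. With PI3Kdi against activation alone, leaving out a replicate gave -0.18 to 0.14 for Lef1 and -0.22 to 0.13 for Myb, and against naïve cells -0.16 to 0.047 for Myb. The cause was not tested. The ratio of Zeb1 to Zeb2 has no value with the minimum mean of 1 FPKM, which removes Zeb2. Depth per library is unknown, so no floor can be given for Bcl6, Bach2 or Zeb2 near 0.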
